A study of Rattus norvegicus with 12 samples.

Results

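The genes followed here, in the terminal end buds of the rat mammary gland, are 9 genes of the luminal epithelium, chosen as luminal keratins (Krt8, Krt19, Krt7), claudins (Cldn3, Cldn4, Cldn7) and surface or adhesion genes (Epcam, Cdh1, Muc1). Probes were taken by the gene's accession, symbol or description, needed the authors' present or marginal call on both replicates in 1 or more of the 6 groups, and the brightest probe stood for its gene. By this rule 8 of the 9 genes were measured, among 11882 genes and unnamed accessions tested. Krt8 had no matched probe and is not analysed here. The 8 probes were detected on both arrays of all 6 groups, and on the 10 arrays with a scanner file none was saturated and all were well above background. The probe of Cldn4 stands for a consensus sequence with no RefSeq accession and was named from its description alone, as a sequence like mouse claudin 4.

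Terminal end buds of rats given diethylstilbestrol (DES, a synthetic estrogen) at birth differed from those of oil controls in several genes that mark luminal epithelial cells. With 1 µg DES and array median scaling, the luminal keratin Krt19 was about 1.9-fold below oil at both ages, and Krt7 was lower as well. At 49 days the claudins Cldn3 and Cldn7 were also about 2-fold lower with 1 µg DES than in oil, while Cdh1 (E-cadherin) was higher. The Cdh1 call was lost without any 1 of the arrays compared, and that of Cldn3 without some of them. With 100 µg DES no measured gene of the group passed the test against oil at 35 days, and at 49 days Krt19 and Muc1 were lower and Cdh1 was higher. None of these 49 day calls held in a fit with array signal as a covariate. That of Krt19 was also lost with other scalings and without any 1 of the arrays compared. Epcam passed the test in none of the 11 comparisons made.

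Keratins 7, 8 and 19 are the intermediate filament proteins of simple epithelia, and in the mammary gland they belong to the luminal layer that lines the lumen. Claudins are membrane proteins that seal tight junctions between neighbouring epithelial cells, E-cadherin holds the same cells together at adherens junctions, and EpCAM is an epithelial adhesion molecule known to bind claudin-7. Mucin 1 is a heavily glycosylated protein of the apical surface. Terminal end buds are the club-shaped tips of growing ducts in the immature gland, built of an outer cap cell layer and an inner mass of luminal precursors.

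The animals were inbred female Sprague-Dawley rats. Each newborn received 1 subcutaneous injection within 24 h of birth, of sesame oil alone or of 1 or 100 µg DES in 0.05 ml oil, and the abdominal mammary glands were removed when the rats were 35 or 49 days old. End buds were cut from frozen sections by laser microdissection, and amplified RNA was labelled with 1 dye and hybridized to an Agilent rat array. Oil, DES 1 µg and DES 100 µg at each of the ages gave 6 groups of 2 animals and 2 arrays, 12 arrays in all, and this number of arrays limits the precision of every value. Values below are signal over the array median, and differences are on its log2 scale with their standard error. Adjusted p-values are from limma, fitted over all 12 arrays and adjusted by the Benjamini-Hochberg method over all 11882 genes, with a threshold of 0.05. Levels of one gene are not set against those of another, because probes differ in brightness.

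The 2 oil arrays at 49 days stood apart from the other 10. In that group 47.2% of probes were detected on both arrays, against 57.5% to 61.7% in the other groups. The dimmest detected probe of each lay at 1.04 and 1.03 array medians, while it lay between 0.214 and 0.368 elsewhere. Every comparison with oil at 49 days carries this difference, and its part in the results was not tested. Scan days could be read for 10 arrays, 5 days with 2 arrays each. DES 1 µg and oil at 35 days, and both doses at either age, shared a day. DES 100 µg and oil at 35 days shared none, so no comparison within a day could be made there. With scan day as a fixed block, 1 residual degree of freedom was left. In the 6 comparisons that could then be fitted 0 of all genes passed the test, members included, so this says nothing particular of the members. The members' differences called in the fit without the block kept their direction.

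Of the 8 measured genes, 1 rose and 4 fell with DES 1 µg against oil at 49 days, where 12.7% of all genes rose and 19% fell. At 35 days 1 rose and 2 fell, beside 3.18% and 4.2% of all genes. For DES 100 µg against oil at 49 days the counts were 1 and 2, beside 11% and 14.2% of all genes. At 35 days no member passed in limma, with 0.404% of all genes higher and 0.875% lower, and Muc1 alone had an unadjusted p under 0.05 (0.0366). The median log2 difference of the 8 genes under DES 1 µg was -0.44 at 49 days and -0.50 at 35 days, against -0.09 and -0.02 over all genes tested. Under DES 100 µg it was -0.27 at 49 days and -0.13 at 35 days, against -0.07 and 0.02 over all genes. Both doses were compared with the same oil arrays, so their differences from oil share those arrays. Arrays of 2 groups that do not overlap are common here, since this held for 74.8% of all genes under DES 1 µg and 68.7% under DES 100 µg against oil at 49 days, for 50.5% and 40.1% at 35 days, and for 76.5% between the ages in oil. Between the doses it held for 52.5% at 49 days and 52.9% at 35 days. The plot of DES against oil gives these differences gene by gene.

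**Figure D1:**
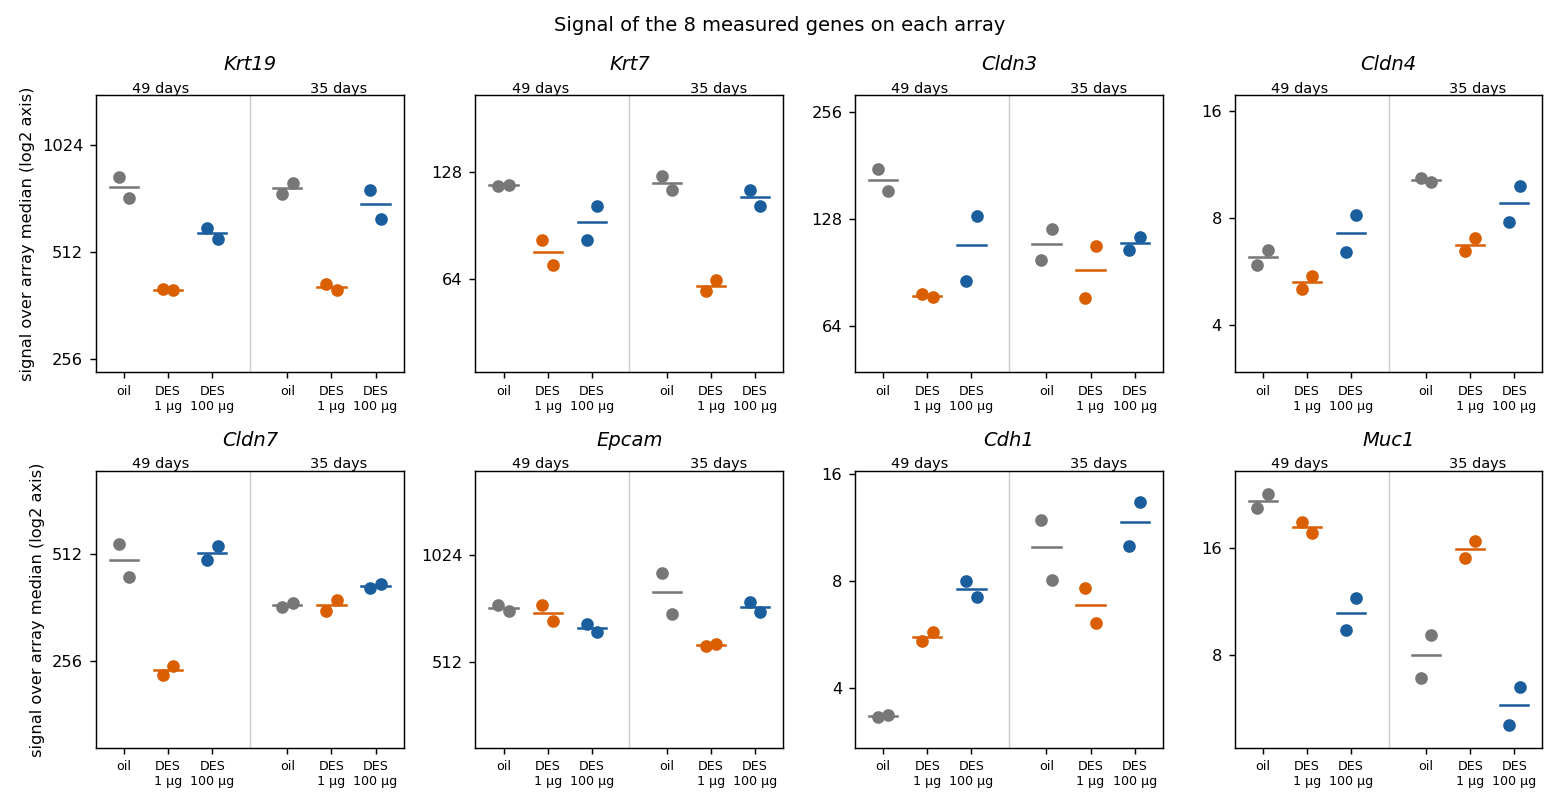
Signal over the array median (log2 axis, the same 6-fold height in each panel) of the 8 measured genes on the 12 arrays, by age and dose; points are arrays and lines are means of 2. Krt19 and Krt7 sit lowest in both DES 1 µg groups, Cldn7 is lowest with DES 1 µg at 49 days, and Cdh1 is lowest and Muc1 highest on the oil arrays at 49 days.

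The keratins were lower with 1 µg DES at both ages. Krt19, the acidic keratin of simple ducts and glands, had a signal of 402 and 400 on the DES 1 µg arrays at 49 days, against 829 and 725 on the oil arrays. At 35 days it was 416 and 400 with DES 1 µg, against 743 and 803 in oil. All 4 arrays with 1 µg lay below all 4 oil arrays. The difference was -0.95 ± 0.13 at 49 days, a 1.93-fold lower level (limma adjusted p = 0.002), and -0.92 ± 0.13 at 35 days, a 1.89-fold lower level (adjusted p = 0.0044). Over the alternatives it ran from -1.05 to -0.60 at 49 days and from -0.98 to -0.80 at 35 days. The change of this difference between the ages was -0.03 ± 0.18 (95% interval -0.44 to 0.38, adjusted p = 0.92). On the scan day that DES 1 µg and oil shared at 35 days, the difference of 1 array against 1 was -0.84. With the background taken off by the normexp method on 10 arrays, the 35 day difference was -0.81 (adjusted p = 0.07).

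At the higher dose, Krt19 lay between the other groups at 49 days. Its signal was 597 and 557 with 100 µg, against 829 and 725 in oil, and the groups did not overlap. The difference of -0.43 ± 0.13 passed the test narrowly (limma adjusted p = 0.042), and did not pass with any 1 of the 4 arrays left out (adjusted p from 0.075 to 0.22), with 75th percentile scaling (0.08) or with quantile normalization (-0.16, adjusted p = 0.41). At 35 days it had 763 and 634 with 100 µg, against 743 and 803 in oil, which overlapped (-0.15 ± 0.13, adjusted p = 0.77, 95% interval -0.44 to 0.14). DES 100 µg was above DES 1 µg at both ages, by 0.52 ± 0.13 at 49 days (adjusted p = 0.049) and 0.77 ± 0.13 at 35 days (adjusted p = 0.0084). The 49 day difference between doses was lost when the 2 oil arrays at 49 days left the fit (adjusted p = 0.071) and without any 1 of its own 4 arrays (0.13 to 0.19). The 35 day difference was lost without DES 1 µg replicate 2 (adjusted p = 0.057) or DES 100 µg replicate 1 (0.062).

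Krt7, a basic keratin of simple epithelia, followed Krt19. Its signal was 82.2 and 70.0 with DES 1 µg at 49 days, against 117 and 118 in oil. At 35 days it was 59.1 and 63.5 with DES 1 µg, against 125 and 114 in oil. In neither pair did the arrays overlap. Krt7 was 1.55-fold lower with 1 µg at 49 days (-0.63 ± 0.14, limma adjusted p = 0.014) and 1.94-fold lower at 35 days (-0.96 ± 0.14, adjusted p = 0.0064). The 49 day difference became -0.32 with quantile normalization (adjusted p = 0.062) and was lost without either oil array or without DES 1 µg replicate 2 (adjusted p from 0.061 to 0.083). The 35 day difference had an adjusted p of 0.053 without oil replicate 1.

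Under 100 µg, Krt7 had 82.3 and 103 at 49 days and 114 and 103 at 35 days, and neither differed from oil by the test (-0.35 ± 0.14, adjusted p = 0.11, and -0.13 ± 0.14, adjusted p = 0.84). The arrays of the 2 doses did not overlap at 35 days, when DES 100 µg was above DES 1 µg by 0.82 ± 0.14 (adjusted p = 0.011, and 0.078 without DES 100 µg replicate 1). At 49 days the difference between doses was 0.28 ± 0.14 (adjusted p = 0.3). Across the 12 arrays the log2 signals of Krt19 and Krt7 correlated at r = 0.911, the highest of the 28 pairs of measured members, where the points share group means and array scaling. Neither keratin differed with age in any treatment, as Krt19 changed by -0.27 to 0.01 and Krt7 by -0.24 to 0.31 between 35 and 49 days, all short of the test. Under quantile normalization, by contrast, Krt7 was lower in oil at 49 days than at 35 days (-0.41, adjusted p = 0.024).

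**Figure D2:**
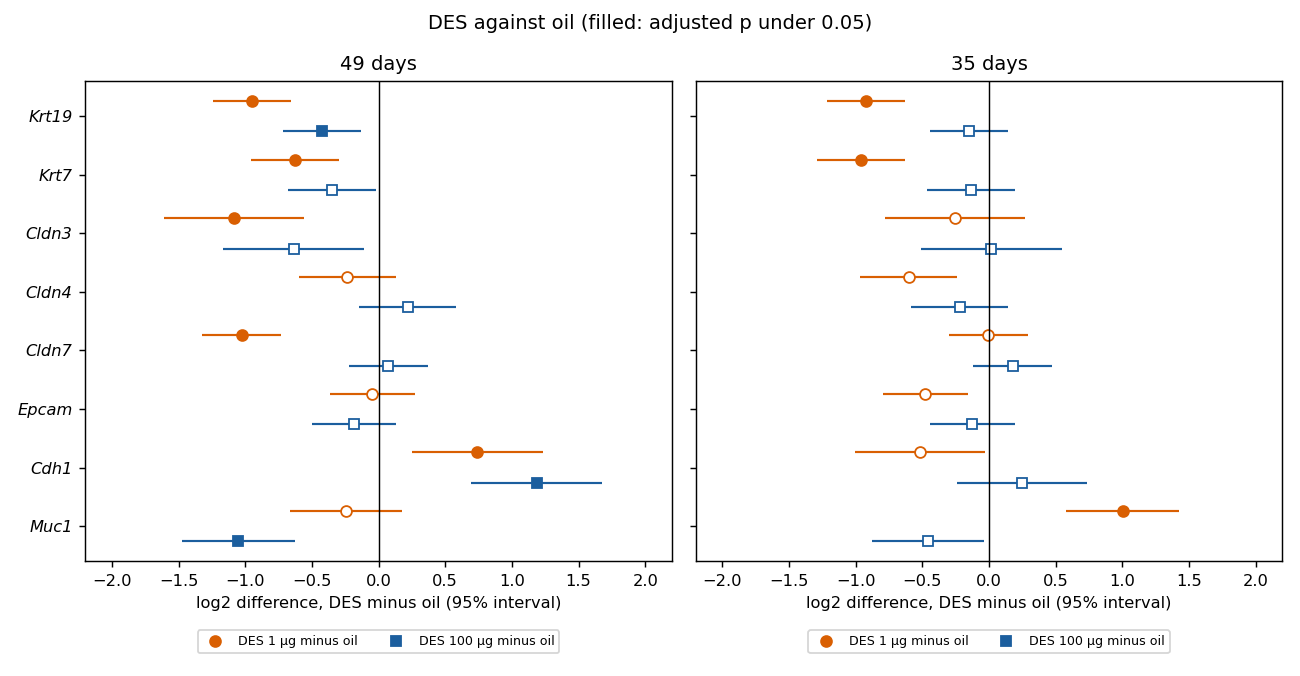
Log2 difference of DES minus oil for the 8 measured genes at 49 days (left) and 35 days (right), with 95% intervals; circles are DES 1 µg, squares DES 100 µg, and filled symbols have an adjusted p under 0.05. Krt19 lies near -0.9 with 1 µg at both ages, Cldn3 and Cldn7 lie near -1.0 with 1 µg at 49 days, and Muc1 is at 1.00 with 1 µg at 35 days.

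The claudins differed from one another. Cldn7 had a signal of 234 and 249 with DES 1 µg at 49 days, against 548 and 441 in oil, and the groups lay far apart. This was a 2.04-fold lower level (-1.03 ± 0.13, limma adjusted p = 0.0017), and it passed the test under all 12 alternatives, from -1.18 to -0.69. At 35 days the gene had 354 and 382 with DES 1 µg, against 364 and 374 in oil, and the oil arrays lay within the range of the treated ones (-0.01 ± 0.13, adjusted p = 0.98, 95% interval -0.30 to 0.29). The difference from oil thus moved by -1.02 ± 0.18 between the ages (adjusted p = 0.012).

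DES 100 µg gave no such difference in Cldn7. Its signal was 492 and 542 at 49 days, inside the range of 548 and 441 in oil (0.07 ± 0.13, adjusted p = 0.71), and 412 and 423 at 35 days, against 364 and 374 in oil (0.18 ± 0.13, adjusted p = 0.71). At 49 days DES 100 µg was 2.14-fold above DES 1 µg (1.10 ± 0.13, limma adjusted p = 0.0027, and 0.0037 without the 2 oil arrays in the fit). On the scan day the doses shared at that age, 1 array against 1 differed by 1.12. Between ages, Cldn7 fell in DES 1 µg animals by 0.61 on the log2 scale to 234 and 249 at 49 days, against 354 and 382 at 35 days (adjusted p = 0.04). That call was lost without any 1 of the 4 arrays (adjusted p from 0.075 to 0.21). In oil it was higher at 49 days (0.41 ± 0.13, adjusted p = 0.034), a difference that was lost with 75th percentile scaling (0.26, adjusted p = 0.15), turned to -0.01 with quantile normalization (adjusted p = 0.98), and was lost without either oil array at 35 days or oil replicate 1 at 49 days (0.086 to 0.23).

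Cldn3 had 78.4 and 76.9 with DES 1 µg at 49 days, against 176 and 154 in oil. This was its one difference past the threshold in the 11 comparisons, a 2.12-fold lower level (-1.08 ± 0.23, limma adjusted p = 0.011). Over the alternatives this difference ran from -1.18 to -0.63. It missed the threshold by little without oil replicate 1 (adjusted p = 0.066) or either DES 1 µg array (0.051 and 0.052). At 35 days the groups overlapped, with 76.5 and 107 under DES 1 µg and 97.7 and 119 in oil (-0.25 ± 0.23, adjusted p = 0.55). The DES 100 µg arrays read 85.8 and 130 at 49 days, a wide pair below both oil arrays (-0.64 ± 0.23, adjusted p = 0.075), and this passed without DES 100 µg replicate 2 (-0.94, adjusted p = 0.03). At 35 days DES 100 µg had 105 and 114 (0.02 ± 0.23 against oil, adjusted p = 0.99).

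Cldn4 lies next to Cldn3 on chromosome 12 in the RefSeq gene table, with no protein-coding gene between them, but its call was a different one. It fell with age in oil, to 5.91 and 6.50 at 49 days, against 10.3 and 10.1 at 35 days (-0.72 ± 0.16, limma adjusted p = 0.009, and 0.058 without oil replicate 1 at 49 days). With DES 1 µg at 35 days it had 6.44 and 7.01, below both oil arrays, and the difference of -0.60 ± 0.16 missed the threshold (adjusted p = 0.057). It passed when only genes detected in all groups were tested (0.033). At 49 days DES 1 µg gave 5.04 and 5.51 (-0.23 ± 0.16 against oil, adjusted p = 0.28). DES 100 µg gave 6.40 and 8.14 at 49 days and 7.81 and 9.82 at 35 days, neither past the threshold against oil (0.22 ± 0.16, adjusted p = 0.33, and -0.22 ± 0.16, adjusted p = 0.7).

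The promoters of Cldn3 and Cldn7 are shown because both genes fell with 1 µg DES at 49 days. RefSeq promoter sequences were matched for 5 of the 9 genes (Krt8, Cldn3, Cldn7, Epcam and Muc1), each 250 bases before to 50 bases after the start site on GRCr8. Both strands were searched for the Grainyhead-like site AACCGGTT and its core AACNNGTT, the ETS core CAGGAA, the TATA box TATAAA, the AP-2 site GCCNNNGGC, TGACC, and the full estrogen response element, a palindrome that joins TGACC to its reverse complement across 3 bases. Capitals mark matches, and positions count from the start site at 1.
Cldn3: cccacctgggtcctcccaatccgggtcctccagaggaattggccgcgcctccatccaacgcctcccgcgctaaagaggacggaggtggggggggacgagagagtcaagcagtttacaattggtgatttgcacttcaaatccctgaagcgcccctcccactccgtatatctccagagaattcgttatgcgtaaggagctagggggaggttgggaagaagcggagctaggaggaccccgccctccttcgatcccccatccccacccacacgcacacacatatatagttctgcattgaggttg
Cldn7: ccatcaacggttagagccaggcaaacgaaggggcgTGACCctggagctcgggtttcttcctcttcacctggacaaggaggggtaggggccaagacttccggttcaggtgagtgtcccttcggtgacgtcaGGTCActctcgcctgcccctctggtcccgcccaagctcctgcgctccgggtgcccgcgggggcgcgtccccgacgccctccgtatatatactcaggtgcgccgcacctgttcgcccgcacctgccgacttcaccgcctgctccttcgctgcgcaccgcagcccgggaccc
The Cldn3 window (chr12:27346498-27346797, minus strand) held none of these motifs. The Cldn7 window (chr10:55188420-55188719, plus strand) held TGACC at -215 and, on the opposite strand, at -120. Of 33469 promoters of the same length, 40.5% hold TGACC, so a match is common, and 0.0269% hold the full estrogen response element, which was in no window of the 5 genes. The Epcam window likewise held none of the motifs.

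Epcam did not pass the test in any comparison. It had 737 and 668 with DES 1 µg at 49 days, against 738 and 712 in oil, and the arrays overlapped (-0.05 ± 0.14, limma adjusted p = 0.81, 95% interval -0.37 to 0.27). At 35 days both DES 1 µg arrays, at 567 and 576, lay below the oil arrays at 910 and 697 (-0.48 ± 0.14, adjusted p = 0.078). Without oil replicate 2 this difference was -0.67 and passed (adjusted p = 0.039). DES 100 µg gave 656 and 621 at 49 days and 752 and 708 at 35 days, with differences from oil of -0.18 ± 0.14 (adjusted p = 0.35) and -0.13 ± 0.14 (adjusted p = 0.84). Its whole span over the 12 arrays was 1.60-fold, the smallest of the measured members. With quantile normalization Epcam was lower in oil at 49 days than at 35 days (-0.54, adjusted p = 0.017).

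Cdh1 took a different course, and it was lowest where the oil arrays stood apart. In oil it had 3.32 and 3.37 at 49 days, against 11.9 and 8.06 at 35 days, a 2.92-fold lower level at the later age (-1.55 ± 0.21, limma adjusted p = 0.0019). The array signal as a covariate brought this to -1.16 (adjusted p = 0.07). In DES animals the same age difference did not pass, at -0.29 ± 0.21 with 1 µg (adjusted p = 0.49) and -0.61 ± 0.21 with 100 µg (adjusted p = 0.15). At 49 days Cdh1 had 3.32 and 3.37 in oil, 5.42 and 5.75 with DES 1 µg, and 8.01 and 7.23 with DES 100 µg. Every treated array at that age was above every oil array.

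At 49 days Cdh1 was 2.28-fold higher with DES 100 µg than in oil (1.19 ± 0.21, limma adjusted p = 0.0074, but 0.80 and 0.18 with array signal as a covariate). The authors' deposited table of 2-fold changes gives a linear fold of 2.276 for it. DES 1 µg gave a 1.67-fold higher level (0.74 ± 0.21, adjusted p = 0.032), which was lost without any 1 of the 4 arrays (adjusted p from 0.099 to 0.12). At 35 days Cdh1 had 11.9 and 8.06 in oil, 7.65 and 6.09 with DES 1 µg, and 10.0 and 13.4 with DES 100 µg. Neither dose differed from oil by the test there (0.25 ± 0.21, adjusted p = 0.78, for 100 µg and -0.52 ± 0.21, adjusted p = 0.19, for 1 µg). From 35 to 49 days the difference from oil moved by 1.26 ± 0.30 under 1 µg (adjusted p = 0.026) and 0.94 ± 0.30 under 100 µg (adjusted p = 0.084).

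Muc1 moved in the opposite sense to Cdh1 over the arrays (r = -0.899 over 12 arrays, which share group means). In oil it had 20.7 and 22.6 at 49 days, against 6.86 and 9.08 at 35 days, so it was 2.74-fold higher at the later age (1.45 ± 0.18, limma adjusted p = 0.0015, past the threshold under all 12 alternatives). DES 100 µg animals showed a smaller rise, with 9.41 and 11.5 at 49 days, against 5.08 and 6.49 at 35 days (0.86 ± 0.18, adjusted p = 0.033). That call was lost with 75th percentile scaling (0.058), with quantile normalization (0.062), without the 2 oil arrays at 49 days (0.058), and without either DES 100 µg array at 35 days or replicate 2 at 49 days (0.066 to 0.22). DES 1 µg animals had 18.9 and 17.6 at 49 days, against 14.9 and 16.7 at 35 days (0.21 ± 0.18, adjusted p = 0.58).

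At 35 days Muc1 was 2.00-fold higher with DES 1 µg than in oil (14.9 and 16.7 against 6.86 and 9.08, 1.00 ± 0.18, limma adjusted p = 0.016). The authors' deposited table gives a fold of 2.01. The call was lost without oil replicate 1 (adjusted p = 0.095) or DES 1 µg replicate 2 (0.099). DES 100 µg was at 5.08 and 6.49 (-0.46 ± 0.18 against oil, adjusted p = 0.39), which is 2.75-fold below DES 1 µg (-1.46 ± 0.18, adjusted p = 0.0025). At 49 days Muc1 was 2.07-fold lower with DES 100 µg than in oil (-1.05 ± 0.18, adjusted p = 0.0067, but -0.52 and 0.17 with array signal as a covariate), and the authors' deposited table gives a fold of 0.483. DES 1 µg at 49 days overlapped neither oil nor DES 100 µg. It did not differ from oil by the test (-0.25 ± 0.18, adjusted p = 0.33), and DES 100 µg lay 0.81 ± 0.18 lower than DES 1 µg (adjusted p = 0.039, but 0.063 without the 2 oil arrays and 0.083 to 0.19 without any 1 of its own 4 arrays).

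The probes of Muc1 did not give the same result. Of its 3 probes, 1 was detected in no group, and a dimmer detected probe was set beside the brightest. At 35 days the dimmer probe read 3.26 and 4.26 with DES 1 µg, against 3.28 and 3.64 in oil, and the arrays overlapped (0.11 ± 0.18, limma adjusted p = 0.75). The difference between doses at that age was -0.17 ± 0.18 on the dimmer probe (adjusted p = 0.6), against -1.46 on the brightest. With both probes averaged, the rise with DES 1 µg at 35 days was 0.55 (adjusted p = 0.064). Both probes were higher in oil at 49 than at 35 days (0.86 ± 0.18, adjusted p = 0.0068 on the dimmer) and lower under DES 100 µg than in oil at 49 days (-0.87 ± 0.18, adjusted p = 0.011 on the dimmer). The rise with age under DES 100 µg and the lower level of 100 µg than 1 µg at 49 days did not pass on the dimmer probe (0.05 ± 0.18, adjusted p = 0.91, and -0.23 ± 0.18, adjusted p = 0.49). From 35 to 49 days the difference of DES 1 µg from oil moved by -0.75 ± 0.25 on the dimmer probe (adjusted p = 0.064) and by -1.25 ± 0.26 on the brightest (0.018). The dimmer probe was lower with DES 1 µg than in oil at 49 days (-0.64 ± 0.18, adjusted p = 0.027), where the brightest did not pass.

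**Figure D3:**
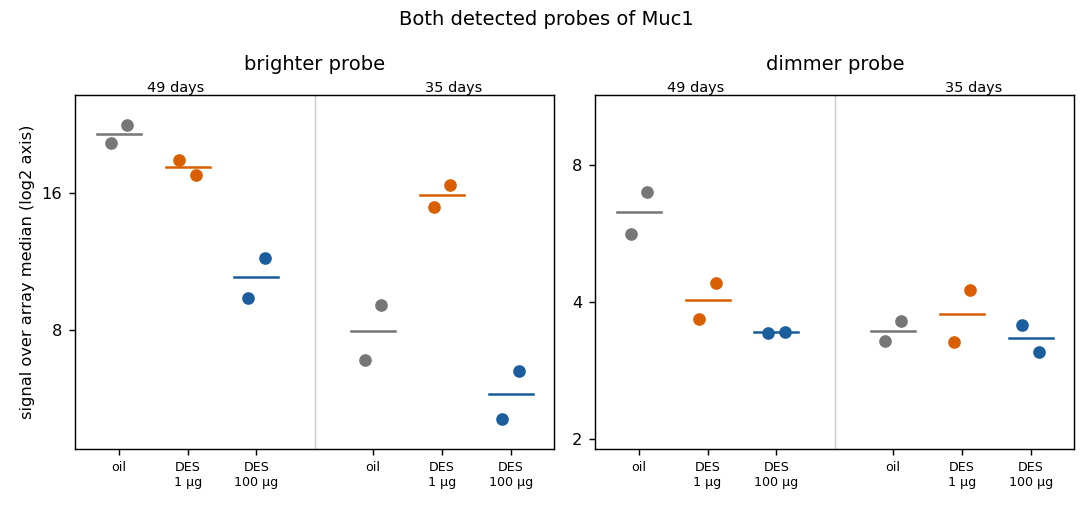
Signal over the array median (log2 axis, 6-fold height) of both detected Muc1 probes on each of the 12 arrays; lines are means of 2 arrays. At 35 days the brighter probe (left) is higher with DES 1 µg, at 14.9 and 16.7, than in oil, at 6.86 and 9.08, while the dimmer probe (right) reads no higher than 4.26 in any group at that age.

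The Muc1 promoter is shown since the brightest probe of this gene passed in 7 of the 11 comparisons, against 3 for the dimmer one. Capitals mark the same motifs.
Muc1: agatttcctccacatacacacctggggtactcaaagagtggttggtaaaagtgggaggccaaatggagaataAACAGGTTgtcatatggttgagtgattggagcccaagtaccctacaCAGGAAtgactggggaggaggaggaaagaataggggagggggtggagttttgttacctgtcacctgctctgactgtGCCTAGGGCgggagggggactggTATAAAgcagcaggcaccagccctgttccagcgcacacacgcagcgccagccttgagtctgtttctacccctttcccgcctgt
This window (chr2:176933500-176933799, plus strand) held the core AACNNGTT at -178, CAGGAA at -132, GCCNNNGGC at -56 and TATAAA at -33. The shares of all promoters that hold them are 4.23%, 29.1%, 15.1% and 14.2%. A match is a description of letters only.

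Between the doses, 2 of the 8 members were higher and 1 was lower under 100 µg than under 1 µg at 49 days, where 3.61% of all genes were higher and 3.15% lower. At 35 days the counts were again 2 and 1, beside 4.14% and 3.87%. Krt19 was above and Muc1 below its DES 1 µg level at both ages, Krt7 was above it at 35 days and Cldn7 at 49 days. The median member difference was 0.45 at 49 days and 0.37 at 35 days, against 0.02 and 0.05 over all genes.

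Between the ages, 1 member (Cldn7) fell and none rose in DES 1 µg animals, beside 0.808% and 3.32% of all genes. In DES 100 µg animals 1 (Muc1) rose and none fell, beside 4.42% and 1.51%. In oil 2 rose (Cldn7 and Muc1) and 2 fell (Cldn4 and Cdh1), beside 27.7% and 14% of all genes. With 75th percentile scaling the median over all genes moved by -0.15 in this oil comparison and by -0.11 in that of DES 1 µg. From 35 to 49 days the difference from oil moved up for 1 member (Cdh1) and down for 2 (Cldn7 and Muc1) under 1 µg, beside 9.43% and 11.3% of all genes. Under 100 µg it moved for none, beside 4.63% up and 5.24% down.

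**Figure D4:**
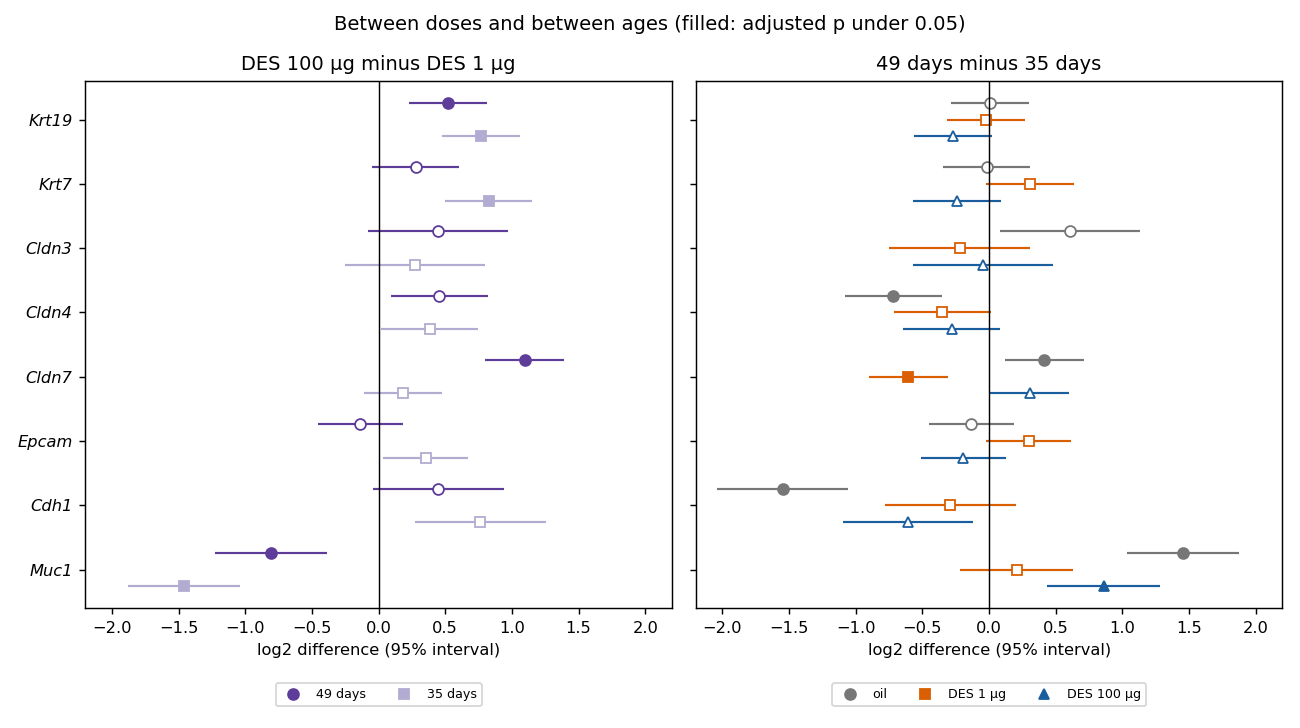
Log2 differences of the 8 measured genes between doses, DES 100 µg minus DES 1 µg at 49 and 35 days (left), and between ages, 49 minus 35 days within each treatment (right), with 95% intervals; filled symbols have an adjusted p under 0.05. Cldn7 differs between doses by 1.10 at 49 days, Muc1 is lower with 100 µg at both ages, and in oil Cdh1 lies at -1.55 and Muc1 at 1.45 with age.

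Markers of stromal cell types moved with the same groups. Their sums below add signals of unlike probes, so the brightest markers weigh most. End buds are cut from tissue in which fat and connective tissue lie against the epithelium, and in such bulk samples fewer luminal cells and less RNA of these genes per cell cannot be told apart. The summed signal of 6 of 8 fibroblast markers was 1622 to 2073 with DES 1 µg at 49 days, against 999 to 1171 in oil, and 1537 to 1645 with DES 1 µg at 35 days, against 865 to 910 in oil. The sum of 6 of 8 adipocyte markers was 683 to 711 with DES 1 µg at 49 days, against 383 to 400 in oil, and 565 to 620 at 35 days, against 315 to 317. For 5 of 8 endothelial markers it was 68.3 to 74.6 with DES 1 µg at 49 days, against 43.3 to 47.7 in oil, and 100.4 to 104 at 35 days, against 45.6 to 46.7. Plin1, Lep, Cdh5 and Tek had probes that were not detected, and Col1a1, Col3a1 and Esam are not analysed here.

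The summed signal of the 8 measured luminal markers, which are the members themselves, was 1493 to 1563 with DES 1 µg at 49 days, against 2182 to 2438 in oil, and 1502 to 1558 at 35 days, against 2134 to 2268. Single stromal markers passed the test in the direction of their sums, with 6 of 6 fibroblast, 5 of 6 adipocyte and 4 of 5 endothelial markers higher with DES 1 µg than in oil at 49 days, and 2, 4 and 5 higher at 35 days. The fibroblast marker Lum was not detected in oil at 49 days, so its call there rests on an undetected level. Over all genes 12.7% were higher at 49 days and 3.18% at 35 days. With DES 100 µg at 35 days none was higher, where 0.404% of all genes were. The fibroblast marker Mgp was lower (-0.69 ± 0.13, limma adjusted p = 0.049), where 0.875% of all genes were. The sums there were 621 to 740 for fibroblast, 309 to 322 for adipocyte and 35.9 to 36.7 for endothelial markers. In oil they were 865 to 910, 315 to 317 and 45.6 to 46.7. At 49 days they were 1166 to 1268, 479 to 580 and 45.8 to 58.5 with DES 100 µg, where 2, 3 and 1 markers were higher than in oil. Over all genes 11% were higher in that comparison. The sum of 7 of 10 basal and myoepithelial markers was 381 to 410 with DES 1 µg at 49 days, against 475 to 519 in oil, and 395 to 439 at 35 days, against 458 to 499.7. Of these 7 markers, 2 were lower with DES 1 µg at 49 days and 1 was lower at 35 days, beside 19% and 4.2% of all genes.

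Macrophage and lymphocyte markers took another course. The sum of 3 of 7 macrophage markers was 48.8 to 58.1 with DES 1 µg and 54.0 to 54.3 with DES 100 µg at 35 days, against 78.4 to 87.1 in oil. For 3 of 7 lymphocyte markers it was 3.98 to 5.64 with DES 1 µg and 3.71 to 3.73 with DES 100 µg at 35 days, against 9.67 to 10.3 in oil. At that age 2 of the 3 macrophage markers were lower than oil under either dose, as were 3 of the 3 lymphocyte markers under 1 µg and 2 of the 3 under 100 µg. Over all genes 4.2% were lower there with DES 1 µg and 0.875% with DES 100 µg. At 49 days the macrophage sum was 80.9 to 89.96 with DES 1 µg and 64.9 to 72.8 with DES 100 µg, against 63.6 to 63.9 in oil, and 1 and 0 of the 3 were higher. The lymphocyte sum was 5.99 to 6.57 with DES 1 µg and 7.09 to 8.55 with DES 100 µg, against 4.85 to 5.12 in oil, and 0 and 2 of the 3 were higher. Zap70, 1 of these 2, was not detected in oil at 49 days. Over all genes 12.7% were higher at 49 days with DES 1 µg and 11% with DES 100 µg. The part of all these markers in the keratin and claudin differences was not tested.

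**Figure D5:**
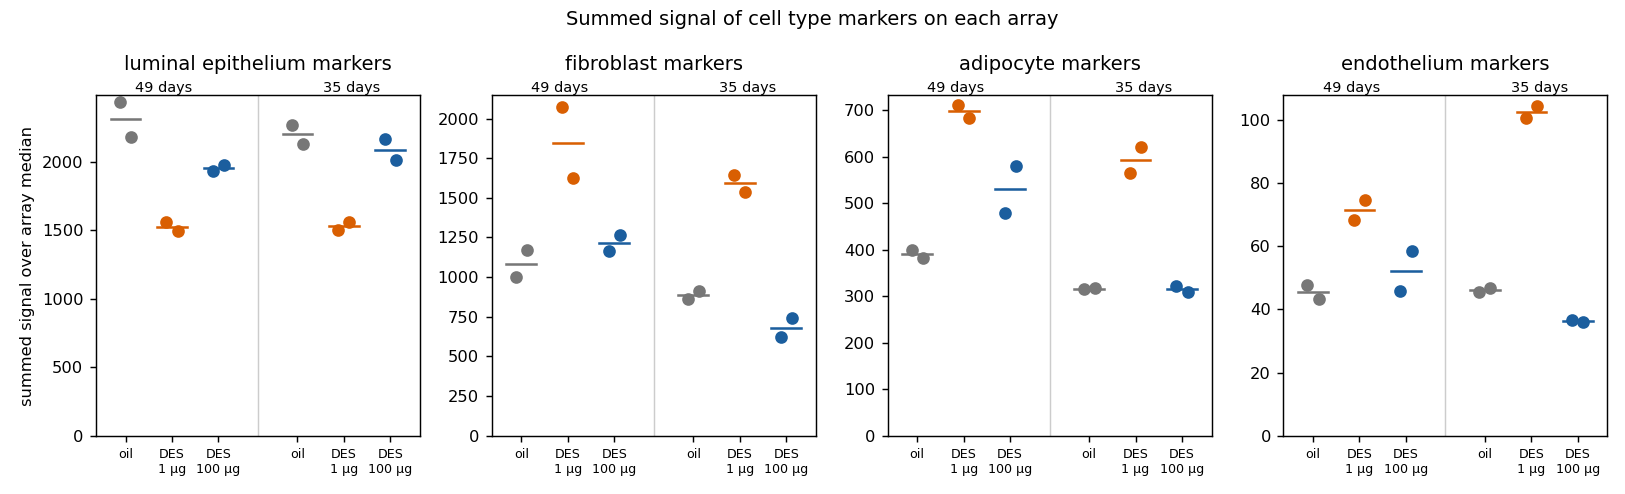
Summed signal over the array median of the measured markers of 4 cell types on each of the 12 arrays (linear axes from 0); lines are means of 2 arrays. The luminal sum, made of the 8 members, is lower in both DES 1 µg groups (1493 to 1563) than on the oil arrays (2134 to 2438), while fibroblast, adipocyte and endothelial sums are higher there. The brightest probes weigh most in each sum.

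Other junction genes were measured for comparison, from lists by function. Of 10 measured further tight junction genes, 3 rose with DES 1 µg at 35 days and none fell, namely Ocln (occludin, 0.70 ± 0.13, limma adjusted p = 0.014) and the claudins Cldn1 (0.54 ± 0.12, adjusted p = 0.037) and Cldn10 (0.77 ± 0.18, adjusted p = 0.041). Over all genes 3.18% rose and 4.2% fell there. The list median was -0.04, beside -0.02 over all genes. At 49 days none of the 10 passed with DES 1 µg (median -0.18, beside -0.09), where 12.7% of all genes rose and 19% fell. With DES 100 µg at that age Ocln fell (-0.45 ± 0.13, adjusted p = 0.034), where 14.2% of all genes fell. In oil Ocln, Cldn1 and Cldn10 were higher at 49 than at 35 days (0.95 ± 0.13, 0.47 ± 0.12 and 0.65 ± 0.18, adjusted p = 0.0017, 0.016 and 0.022).

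Desmosomes are the junctions that anchor keratin filaments. Of 7 measured desmosome genes, 2 fell and none rose with DES 1 µg at 35 days, where 4.2% of all genes fell. These were Pkp1 (plakophilin 1, -1.07 ± 0.15, limma adjusted p = 0.0044) and Dsc2 (desmocollin 2, -0.52 ± 0.10, adjusted p = 0.018). The list median was -0.45, beside -0.02 over all genes. Pkp1 under DES 100 µg exceeded its DES 1 µg level at 49 days (1.22 ± 0.15, adjusted p = 0.0031) and at 35 days (1.23 ± 0.15, adjusted p = 0.002). At 49 days Dsc2 was below oil with DES 100 µg (-0.48 ± 0.10, adjusted p = 0.011) and with DES 1 µg (-0.45 ± 0.10, adjusted p = 0.012), and Ppl (periplakin) was above it with both (1.19 ± 0.22, adjusted p = 0.0084, and 0.71 ± 0.22, adjusted p = 0.042). Pkp3 (plakophilin 3) also rose with DES 100 µg at 49 days (0.73 ± 0.15, adjusted p = 0.012). Pkp1 was not detected in oil at 49 days, so no size is given there.

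Of 7 measured adherens junction genes, Jup (plakoglobin, shared by adherens junctions and desmosomes) was the one that passed with DES 1 µg at 35 days (-0.73 ± 0.16, limma adjusted p = 0.031). In that comparison 4.2% of all genes fell. The signal of Jup was 30.3 and 27.4 with DES 1 µg, against 55.6 and 41.2 in oil. In oil Jup fell with age (-0.91 ± 0.16, adjusted p = 0.0039), as did Cdh1. With DES 100 µg at 49 days 3 of the 7 rose, where 11% of all genes rose. Jup was among them (0.51 ± 0.16, adjusted p = 0.048). Nectin2 and Ctnnd1 were the other two, both not detected in oil at 49 days.

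With DES 1 µg at 49 days 19% of all genes fell and 12.7% rose. Among 9 measured epithelial surface and protease genes, 5 fell and 1 rose there (median -0.59, beside -0.09 over all genes). They included Lsr, a protein of tricellular junctions (-1.52 ± 0.25, limma adjusted p = 0.0042), the protease inhibitor Spint2 (-0.90 ± 0.15, adjusted p = 0.0045) and the apical recycling GTPase Rab25 (-0.73 ± 0.11, adjusted p = 0.0035). The tetraspanin Cd9 was lower by more than these, with a larger error (SE 0.54, adjusted p = 0.025). At 35 days 2 fell with DES 1 µg, beside 4.2% of all genes. These were Rab25 (-0.75 ± 0.11, adjusted p = 0.0069) and St14, the protease matriptase (-0.79 ± 0.19, adjusted p = 0.041). With DES 100 µg at 49 days 3 fell, beside 14.2% of all genes. Lsr and Cd9 were among them (-0.98 ± 0.25, adjusted p = 0.024, and -2.10 ± 0.54, adjusted p = 0.025). St14 rose (1.10 ± 0.19, adjusted p = 0.006), where 11% of all genes rose. It was also the 1 gene of this list that rose with DES 1 µg at 49 days (0.67 ± 0.19, adjusted p = 0.028).

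Transcription factors of the epithelial state and mesenchymal genes were sparser. Of 3 measured factors, at 49 days Tfap2c (AP-2 gamma) was above oil with DES 100 µg (1.34 ± 0.17, limma adjusted p = 0.0022) and with DES 1 µg (0.67 ± 0.17, adjusted p = 0.021), and Ehf, an ETS factor, was below oil with DES 1 µg (-0.58 ± 0.15, adjusted p = 0.022). None of the 3 passed at 35 days with either dose, where 3.18% of all genes rose and 4.2% fell with DES 1 µg. With DES 100 µg these shares were 0.404% and 0.875%. Of 6 measured mesenchymal genes, 4 rose with DES 1 µg at 49 days, where 12.7% of all genes rose, including Vim (vimentin, 1.25 ± 0.14, adjusted p = 0.0012) and Fn1 (fibronectin, 0.45 ± 0.10, adjusted p = 0.013), with a list median of 0.78, beside -0.09 over all genes. Cdh11, also among the 4, was not detected in oil at 49 days, so no size is given for it. Vim also rose with DES 100 µg at 49 days (0.97 ± 0.14, adjusted p = 0.0038), the 1 of the 6 that did, where 11% of all genes rose. At 35 days none passed with DES 1 µg (median 0.52, beside -0.02), where 3.18% of all genes rose and 4.2% fell. Of the basal keratins, Krt14 was below its DES 1 µg level in DES 100 µg animals at 49 days (-0.49 ± 0.10, adjusted p = 0.028).

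Finally, 4266 named genes detected in all groups were ranked by how closely their log2 signal followed the mean centred profile of the 8 members over the 12 arrays. Among the closest were Rab25 (r = 0.956), Serpina1, the protease inhibitor alpha-1 antitrypsin (0.951), the glycolytic enzyme Pgam1 (0.927), the protein convertase Furin (0.927) and Gp2, a membrane glycoprotein of secretory granules (0.907). These are descriptions, since the arrays share groups and scaling. Rab25 had 6.65 and 5.95 with DES 1 µg at 49 days, against 10.5 and 10.4 in oil. At 35 days it averaged 6.81 ± 0.348 with DES 1 µg, against 11.4 ± 0.580 in oil (SD, n = 2 each). Its arrays did not overlap in either pair, as held for 74.8% of all genes at 49 days and 50.5% at 35 days. Rab25 was picked here by its likeness to the members on these same arrays.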

How the data were processed

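Per the labels, Agilent Feature Extraction 9.1.3.1 read each array. The authors' value table, as deposited, gives the processed signal intensity of each probe, background taken off and not scaled between arrays; scanner files matched it to within 0.497%. The authors' second table holds a ratio, signal over array median relative to oil at 35 days; dividing the intensities by array medians gave 99.97% of its detected values to within 0.05 (log2). Their deposited 2-fold tables hold linear folds of group means and no test. For oil at 49 days no scanner file was used.

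Intensities were divided by the array median over 20500 non-control probes, floored at 0.01 and taken to log2. Of 13266 probes detected in at least 1 group, the brightest of each gene or unnamed accession was kept, leaving 11882. limma 3.58.1 (R 4.3.3) was fitted with 6 group means and no block, leaving 6 residual degrees of freedom, two-sided. limma was also run on simulated data with 200 changed genes, tested as DES 1 µg against oil at 35 days. There it recovered 53% of genes changed 2-fold and 91% of those changed 4-fold. In the measured data 877 genes were called in that comparison, so these shares need not hold for it. Replicates are separate animals per the labels. The p-values rest on the spread between the 2 animals of a group, pooled over the 6 groups and moderated over all genes. A gene's standard error is thus the same in every comparison of 2 groups. Alternatives were other scalings, filters, probe rules and backgrounds, blocks for replicate number and scan day, an array signal covariate, and leaving out arrays. Named genes are all members, at most 3 called genes with the smallest p of each junction or epithelial list in a comparison, and the 6 genes most correlated with the members, of which 1 is not reported here. The members and lists were chosen with earlier results of these data known. Promoters are from RefSeq (GRCr8).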

Additional observations from a re-analysis of the deposited data

Results flagged for a closer look

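For 3 of the 8 members the effect of DES 1 µg against oil differed between 49 and 35 days by the test of the change itself, in 1 member upward and 2 downward, where 9.43% and 11.3% of all genes did so. Cldn7 changed by -1.02 ± 0.18 on the log2 scale (limma adjusted p = 0.012, n = 2 arrays in each of 4 groups), with both DES 1 µg arrays below both oil arrays at 49 days and overlapping arrays at 35 days. It passed the test under all 16 alternatives. Cdh1 changed by 1.26 ± 0.30 (adjusted p = 0.026), being above oil at 49 days and below it at 35 days on all DES 1 µg arrays. Its change was lost without oil replicate 1 at 35 days, either oil array at 49 days, DES 1 µg replicate 2 at 35 days or either DES 1 µg array at 49 days (adjusted p from 0.06 to 0.087), and with array signal as a covariate (0.091). Muc1 changed by -1.25 ± 0.26 (adjusted p = 0.018), being below oil at 49 days and above it at 35 days on all DES 1 µg arrays. It was lost without oil replicate 1 at 35 days (0.057), DES 1 µg replicate 2 at 35 days (0.062) or DES 1 µg replicate 2 at 49 days (0.055), and on its dimmer probe the change was -0.75 ± 0.25 (adjusted p = 0.064). All 3 rest on the oil arrays at 49 days, which stand apart in signal and detection, and the part of that was not tested.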

How the results depend on the processing

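The number of members past the threshold was recomputed under each alternative. With scan day as a block, on 10 arrays, it was 0 in 5 comparisons where it was 1 or 3. There 0 of all genes passed, with 1 residual degree of freedom. With array signal as a covariate it was 5 instead of 3 for DES 1 µg against oil at 35 days, 3 instead of 5 at 49 days, 0 instead of 3 for DES 100 µg against oil at 49 days, and 2 instead of 4 for age in oil. For DES 100 µg against DES 1 µg at 49 days it was 1 instead of 3 with no detection filter, with the mean of probes and without the 2 oil arrays at 49 days. For age under DES 100 µg it was 0 instead of 1 in those settings and with 75th percentile scaling, quantile normalization and normexp. Quantile normalization gave 5 instead of 3 for the change of the 1 µg difference with age, and turned Cldn7 in oil with age to -0.0050. Leaving out 1 array gave 1 to 4 members for DES 1 µg against oil at 35 days and 2 to 3 at 49 days, 2 to 3 for DES 100 µg against oil at 49 days and 0 at 35 days, 1 to 3 between doses at 35 days and 1 at 49 days, 0 for age under DES 1 µg, 0 to 1 under DES 100 µg and 2 to 4 in oil, and 1 to 3 and 0 for the changes of the 1 and 100 µg differences. The cause was not tested.

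The labels name no pairing, so the replicate numbers were not taken as pairs. Correlations of same-numbered deviations between groups ran from -0.12 to 0.43. The highest was between DES 1 µg at 35 days and DES 100 µg at 49 days, and what such arrays share was not tested. With the replicate number as a block, 4, 4 and 5 members passed instead of 3, 3 and 4 for DES 1 µg against oil at 35 days, DES 100 µg against oil at 49 days and age in oil. No other count of members changed under this block.

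Counts over all genes moved by over 1.5 times with normexp on pixel medians (462, 66, 569, 140 and 245 instead of 877, 152, 952, 490 and 705 for DES 1 µg and 100 µg against oil and against each other at 35 days, then age under each dose). With the covariate they were 1654 instead of 877 and 2064 instead of 3770 for DES 1 µg against oil at 35 and 49 days, 497 instead of 2995 for DES 100 µg against oil at 49 days, 1800 instead of 803 between doses at 49 days, 1871 instead of 490 for age under DES 1 µg, 1029 instead of 4953 for age in oil, and 1182 and 658 instead of 2468 and 1173 for the changes. Without the oil arrays at 49 days, age under DES 1 µg gave 318 instead of 490. With 75th percentile scaling the share of calls that were higher was 52.9% instead of 40.0% for DES 1 µg against oil at 49 days, 57.9% instead of 43.5% for DES 100 µg, 49.8% instead of 66.4% for age in oil, 61.6% instead of 80.4% and 60.6% instead of 74.5% for age under 1 and 100 µg, and 61.2% instead of 46.9% for the change of the 100 µg difference. Quantile normalization gave 55.2%, 56.8%, 48.2%, 69.7%, 60.7% and 58.9% in the same order, and 57.5% instead of 45.4% for the change of the 1 µg difference. Leaving out 1 array gave 341 to 696 genes for DES 1 µg against oil at 35 days and 1547 to 2178 at 49 days, 52 to 75 and 1164 to 2475 for DES 100 µg, 442 to 896 and 255 to 523 between doses, 128 to 296, 188 to 772 and 2730 to 3669 for age under 1 µg, 100 µg and oil, and 794 to 2956 and 297 to 875 for the changes. The planned normexp on mean signals was not run, because that column was absent.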
